A study of Homo sapiens and Mus musculus with 18 samples.

Results

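Matrix metalloproteinases (MMPs), their tissue inhibitors (TIMPs), the ADAM and ADAMTS proteases and the lysyl oxidases were examined in 2 human cell lines from pancreatic tumours in which the level of keratin 17 (K17, encoded by KRT17) had been changed. The members were the human protein-coding genes whose symbol is MMP, ADAM or ADAMTS plus a number, TIMP1 to TIMP4, LOX, or LOXL1 to LOXL4. By that rule there were 70 genes, and 64 of them had a row among the 34505 rows of the human count tables: 20 MMP, 3 TIMP, 19 ADAM, 18 ADAMTS and 4 lysyl oxidase genes. TIMP4, LOXL4, MMP1, MMP24, ADAM20 and ADAMTS5 were not analysed here. At least 1 count was found for 60 of the 64 genes, and ADAM2, ADAM30, MMP3 and MMP26 had 0 counts in all 12 human libraries. The groups were L3.6 cells with KRT17 knocked out by CRISPR-Cas9, L3.6 wild type cells, PANC-1 cells that over-express K17 and PANC-1 cells with an empty vector, with 3 libraries of total RNA in each. L3.6 is labelled as a pancreatic adenosquamous carcinoma line and PANC-1 as a pancreatic ductal adenocarcinoma line, and all cells grew in the same medium with fetal bovine serum. The labels used here do not say whether the knockout cells are 1 clone or a pool, nor which promoter drives K17. Clone, culture and K17 can therefore not be told apart in either line. The 6 mouse libraries of the series were not used here.

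Secreted and membrane-anchored MMPs cleave collagens and other matrix proteins, and most are made as inactive precursors. TIMPs bind the active enzymes and block them, and TIMP2 also takes part with MMP14 in activating the precursor of MMP2 at the cell surface. ADAM proteases shed the outer parts of membrane proteins, ADAMTS proteases are secreted and cut procollagens and proteoglycans, and lysyl oxidases crosslink collagen and elastin. In pancreatic cancer these genes are known mainly from the dense stroma, where fibroblasts make many of them, while tumour cells in culture make a smaller set.

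The promoters of 4 members named in the comparisons below are shown so that their base composition can be seen beside their expression. Those of MMP2 and TIMP2 are not shown, since neither gene was in the promoter set used here. ADAM12 and ADAM19 rose and TIMP3 fell in L3.6 knockout cells, and LOX rose in PANC-1 K17 cells. The sequences are RefSeq's (GRCh38.p14), 5′ to 3′ on the gene's own strand, and give the 250 bases before the annotated start. They lie at chr10:126388478-126388727 (minus strand) for ADAM12, chr5:157575776-157576025 (minus) for ADAM19, chr5:122078260-122078509 (minus) for LOX and chr22:32801455-32801704 (plus) for TIMP3. Capitals mark the GC box letters GGGCGG on either strand.
ADAM12: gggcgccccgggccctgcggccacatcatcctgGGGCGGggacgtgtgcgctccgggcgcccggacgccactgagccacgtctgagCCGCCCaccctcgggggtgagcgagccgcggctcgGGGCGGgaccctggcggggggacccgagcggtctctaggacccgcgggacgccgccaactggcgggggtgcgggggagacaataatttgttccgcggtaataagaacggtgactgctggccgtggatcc
ADAM19: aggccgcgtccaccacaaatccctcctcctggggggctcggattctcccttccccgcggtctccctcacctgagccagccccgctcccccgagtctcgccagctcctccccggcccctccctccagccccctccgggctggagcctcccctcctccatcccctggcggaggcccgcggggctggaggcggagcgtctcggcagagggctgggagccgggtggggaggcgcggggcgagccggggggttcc
LOX: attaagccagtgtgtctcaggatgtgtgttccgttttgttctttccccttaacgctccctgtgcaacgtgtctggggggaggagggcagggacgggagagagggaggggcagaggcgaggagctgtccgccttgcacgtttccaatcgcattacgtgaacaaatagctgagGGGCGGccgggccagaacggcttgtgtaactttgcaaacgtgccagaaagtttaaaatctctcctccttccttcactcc
TIMP3: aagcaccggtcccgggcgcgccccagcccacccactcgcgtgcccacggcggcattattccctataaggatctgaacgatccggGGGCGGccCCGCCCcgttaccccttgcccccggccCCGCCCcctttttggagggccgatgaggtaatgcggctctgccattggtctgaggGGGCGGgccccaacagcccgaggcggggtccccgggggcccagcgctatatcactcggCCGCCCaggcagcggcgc

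ADAM12 held 3 GC boxes, LOX 1 and TIMP3 5, and the ADAM19 window held no match. The search covered 300 bases (250 before to 50 after the start) in the 38 members that had a row in the count tables and a RefSeq promoter, and in all 27305 promoters of that length. Those 27305 were not limited to protein-coding genes or to genes with a row, as the members were. The shares below therefore come from unlike sets, and enrichment was not tested. GGGCGG on either strand was in 24 of the 38 members (63.2%) and in 44.6% of all promoters. The AP-1 letters TGANTCA were in 4 of the 38 members (10.5%), namely MMP7, MMP10, MMP20 and ADAMTS12, and in 7.76% of all promoters. The TEAD letters GGAATG were in 6 of the 38 members (15.8%) and in 14.0% of all promoters. No 2 matches overlapped in the 4 promoters shown, and a match is a run of letters and not a binding site.

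The depth was 9485257 to 15476629 counts in the L3.6 libraries and 59671178 to 70789559 in the PANC-1 libraries. Counts scaled to the library size (counts per 1000000, CPM) below are scaled by TMM library factors within each line, and 3 counts correspond to 0.191 to 0.325 CPM in L3.6 and to 0.0426 to 0.0502 CPM in PANC-1 on that scale. KRT17 itself had 15.6, 14.7 and 13.6 CPM in L3.6 knockout cells, against 105.3, 120.5 and 120.1 CPM in wild type cells. In PANC-1 it had 27709 counts over the 3 K17 libraries and 2 counts over the 3 empty vector libraries, a ratio of 15500 with an exact 95% counting interval of 4290 to 128000. Counts from mitochondrial DNA made up 18.8% of PANC-1 empty vector replicate 2, against 9.88 to 10.8% in the other 5 PANC-1 libraries. Fitted differences between K17 and empty vector cells are therefore given with and without that library. A row may miss reads of its gene, and the strand setting of the counting is not given in the sources used here, so levels compared between genes or lines are uncertain. Of the epithelial markers, EPCAM was at 425.4 to 496.6 CPM in L3.6 and 28.8 to 36.6 CPM in PANC-1. KRT8, KRT18 and KRT19 were at 8.59 CPM or more in every library. KRT7 was at 81.1 to 145.1 CPM in L3.6 and 0.71 to 1.48 CPM in PANC-1. CDH1 was low in both lines, at 0.58 to 3.17 CPM in L3.6 and 0.11 to 0.92 CPM in PANC-1. Squamous markers, TP63 above all, summed to 278.8 to 414.6 CPM in L3.6 and to 0.173 to 0.388 CPM in PANC-1. Of the others in L3.6, KRT5 was at 9.76 to 15.5 CPM and KRT6A had 0 counts. KRT14 stayed at or under 0.255 CPM there and SERPINB5 at or under 1.19 CPM.

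The lines expressed part of the family. A mean of 1 CPM or more was reached by 31 of the 64 members in L3.6 and by 23 in PANC-1, while 7 members in L3.6 and 8 in PANC-1 had no count. The highest count in any library was 3 or fewer for 18 members in L3.6 and 14 in PANC-1, at which depth a difference was not detectable. Levels per kilobase of exon are given within each group, since the order of the leading members differed between the groups. In L3.6 knockout cells ADAM15 led with 29.5 CPM per kb (range of 3 libraries 28.9 to 30.6). TIMP3 (15.9, range 15.1 to 17.0), MMP2 (14.4, range 13.9 to 15.2) and ADAM10 (13.9, range 13.6 to 14.3) followed, and each of these overlapped the next. In L3.6 wild type cells TIMP3 led with 35.1 CPM per kb (range 33.0 to 38.8), above ADAM15 (range 22.9 to 28.6), ADAM10 (12.6, range 12.4 to 13.1) and LOXL2 (4.24, range 3.72 to 4.95), with no overlap among them. MMP2 was only the eighth there, at 2.19 CPM per kb (range 2.11 to 2.33). ADAM10 is the protease that sheds Notch receptors and many adhesion proteins. In PANC-1 K17 cells the order was TIMP2 (17.9 CPM per kb, range 17.8 to 18.1), LOXL2 (16.5, range 15.9 to 17.0), ADAM10 (14.0, range 13.1 to 14.9) and ADAMTS15 (12.3, range 12.1 to 12.5), again without overlap. In PANC-1 empty vector cells LOXL2 (12.6 CPM per kb, range 11.8 to 13.9), ADAMTS15 (12.2, range 11.1 to 13.8) and ADAM10 (11.2, range 0.290 to 17.0) overlapped, and TIMP2 was below LOXL2 and ADAMTS15 with 5.80 (range 5.38 to 6.05).

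**Figure D1:**
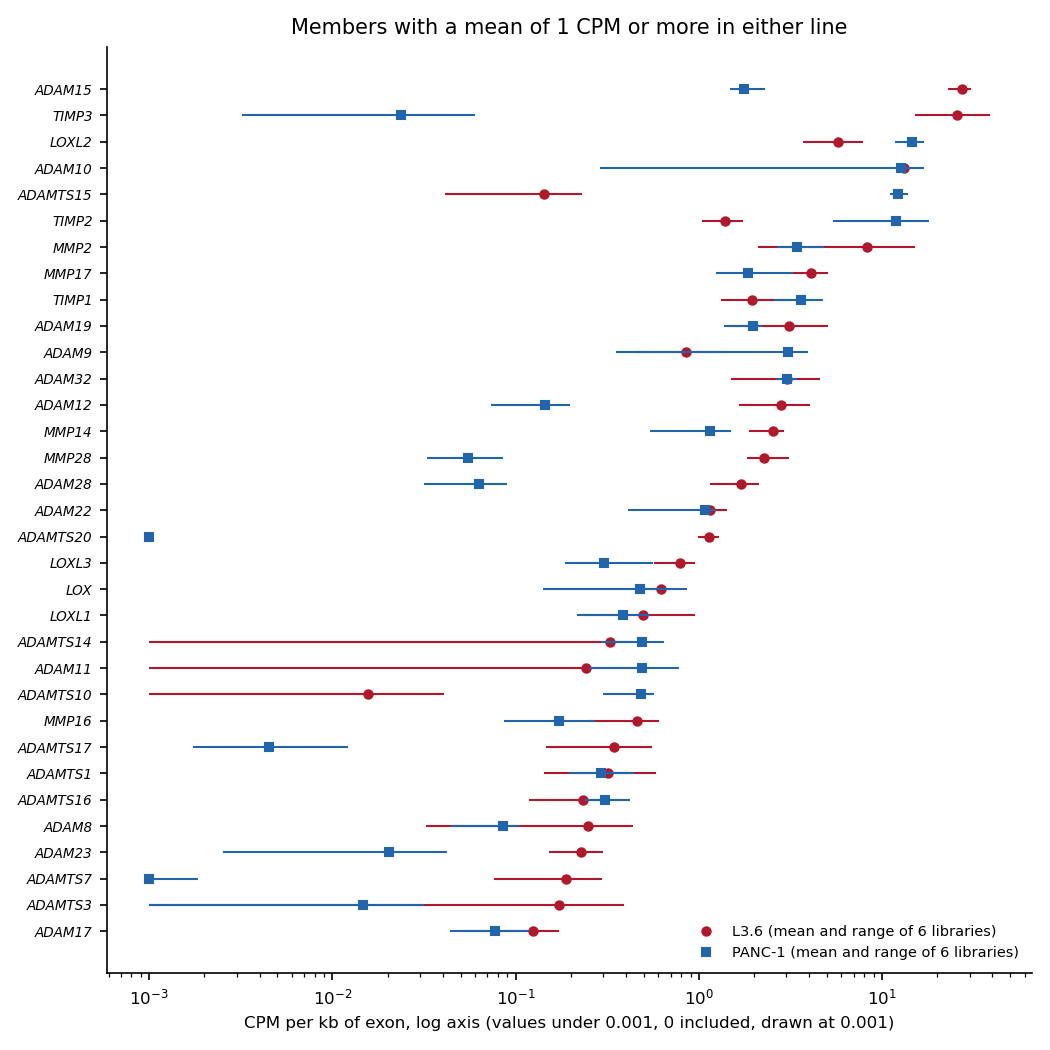
CPM per kb of exon, on a log axis, of the 33 members with a mean of at least 1 CPM in either line. Circles (L3.6) and squares (PANC-1) are means of 6 libraries and bars their range. TIMP3 and ADAM15 lie far to the right in L3.6, ADAMTS15 and TIMP2 in PANC-1, and the bar of ADAM10 in PANC-1 reaches down to 0.290 in empty vector replicate 2.

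The MMP genes that sit together on chromosome 11, collagenases and stromelysins among them (positions 102520508 to 102955734, GRCh38) were close to silent. Of the 9 MMP genes of that cluster 8 had a row, and the highest count of any of them in any library was 17 in L3.6 and 21 in PANC-1. In the fits of each line with all its libraries, MMP7 in PANC-1 was the only gene of the cluster with counts enough to be tested. It had 0.146, 0.352 and 0.339 CPM in K17 cells, against 0.170, 0.103 and 0.298 CPM in empty vector cells, which overlap. MMP13 had at most 1.44 CPM and MMP10 at most 0.542 CPM in any library, both in L3.6. MMP11, a stromelysin encoded elsewhere, stayed at or under 0.618 CPM, and the collagenase MMP8 at or under 0.254 CPM.

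Part of the members differed between L3.6 wild type and PANC-1 empty vector cells, and the share called was below that of all genes. In 1 edgeR quasi-likelihood fit of the 12 libraries, 22 of 44 tested members passed an adjusted p (Benjamini-Hochberg over all genes) of 0.05, 13 higher and 9 lower in L3.6. That is 50.0% of the members, beside 59.8% of all 17583 genes (28.3% higher and 31.5% lower). Without PANC-1 empty vector replicate 2 it was 27 of 39 members, 17 higher and 10 lower, beside 72.9% of 15758 genes (37.2% higher and 35.8% lower). TIMP3, the inhibitor that stays bound to the matrix, had 6025 counts over the 3 L3.6 wild type libraries and 15 over the 3 empty vector libraries, a ratio of 2210 after scaling for depth (exact counting interval 1340 to 3950). ADAMTS20, a protease of the proteoglycan-cleaving group, had 301 counts against 0, which is at least 552-fold higher in L3.6 wild type cells (a floor of 3 counts over the group). In the other direction ADAMTS15, of the same group, had 1.15, 1.30 and 0.677 CPM in L3.6 wild type cells, against 62.9, 78.2 and 66.4 CPM in empty vector cells, a log2 difference of -6.51 ± 0.31 (SE). The groups were thus well apart for these 3 genes. The fit scaled the 12 libraries together, while CPM are scaled within each line. Fitted differences between the lines therefore need not match the ratio of the CPM.

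Among the sheddases, ADAM28 was 4.28 ± 0.27 higher on the log2 scale (SE) in L3.6 wild type cells than in PANC-1 empty vector cells, ADAM12 3.46 ± 0.24 higher and ADAM15 3.37 ± 0.21 higher. MMP28, an MMP of skin and other epithelia, was 5.06 ± 0.41 higher. Lower in L3.6 wild type cells were TIMP2 (-2.89 ± 0.10), LOXL2 (-2.02 ± 0.15), TIMP1 (-1.69 ± 0.30) and MMP2 (-1.31 ± 0.17), while LOX was 1.64 ± 0.22 higher. The adjusted p of these 9 genes was 0.000542 or lower. Without PANC-1 empty vector replicate 2 the 22 members called kept their direction and their call, with shifts of up to 0.49 on the log2 scale. Under upper-quartile scaling the median difference of all genes moved by 0.31 on the log2 scale, which is small beside these values. The share of higher genes among the calls was then 58.8%, beside 47.3% with TMM factors. ADAM19 (-0.46, adjusted p = 0.0292) was no longer called under upper-quartile scaling (-0.16), nor when any library but L3.6 knockout replicate 3 or PANC-1 empty vector replicate 2 was left out (adjusted p 0.0506 to 0.255). MMP13 (2.39, adjusted p = 0.0238) was no longer called without L3.6 wild type replicate 1, without wild type replicate 3 or without PANC-1 empty vector replicate 3 (0.051 to 0.127). Line, depth and the parts of a gene that its row holds cannot be told apart here.

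Knockout of KRT17 in L3.6 went with more MMP2 and less TIMP3. MMP2, the gelatinase that cuts type IV collagen, had 69.9, 74.9 and 68.4 CPM in knockout cells, against 10.5, 10.4 and 11.5 CPM in wild type cells. The knockout values were all far above the wild type ones, a 6.57-fold difference (log2 2.72 ± 0.09, SE, adjusted p = 3.29e-06 in edgeR's quasi-likelihood test). TIMP3 fell to 71.3, 69.4 and 78.3 CPM in knockout cells, against 178.5, 151.9 and 154.0 CPM in wild type cells (log2 -1.15 ± 0.08, adjusted p = 0.000141). The groups did not overlap for either gene. In all, 7 of the 33 members with counts enough to be tested passed the adjusted p of 0.05, 6 higher and 1 lower in knockout cells. Among all 13891 genes tested 9.61% passed, 6.1% higher and 3.51% lower. Members that passed the filter on low counts had a median log2 difference of 0.14, and all genes one of -0.01. Groups did not overlap for 17 of the 33 members, against 33.2% of all genes tested.

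Besides MMP2, the rise involved membrane proteases, a lysyl oxidase and an inhibitor. ADAM19, a membrane protease of the meltrin group, had 32.9, 31.2 and 39.3 CPM in knockout cells, against 13.9, 14.5 and 10.9 CPM in wild type cells (log2 1.39 ± 0.15, adjusted p = 0.001). ADAM12, its close relative, had 34.3, 38.0 and 40.0 CPM in knockout cells, against 17.6, 18.9 and 16.3 CPM in wild type cells (1.09 ± 0.11, adjusted p = 0.000731). For both meltrins all knockout libraries lay well above all wild type ones. LOXL2, which crosslinks collagen IV of basement membranes, had 36.6, 42.1 and 44.8 CPM in knockout cells, against 23.1, 21.3 and 28.3 CPM in wild type cells (0.76 ± 0.13, adjusted p = 0.00904). ADAM28, a sheddase known from lymphocytes and some carcinomas, had 18.6, 20.0 and 18.4 CPM, against 13.3, 10.7 and 14.0 CPM (0.58 ± 0.14, adjusted p = 0.0362). TIMP2 had 9.28, 9.86 and 9.45 CPM in knockout cells, against 6.05, 6.18 and 5.84 CPM in wild type cells (0.66 ± 0.16, adjusted p = 0.0359). The differences in these 3 genes were smaller, and the groups still did not overlap. TIMP2 and ADAM28 passed with little to spare. They were no longer called when any L3.6 library other than wild type replicate 1 was left out, with adjusted p of 0.084 to 0.133 for TIMP2 and 0.0567 to 0.134 for ADAM28, and log2 differences of 0.64 to 0.69 and 0.48 to 0.65.

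**Figure D2:**
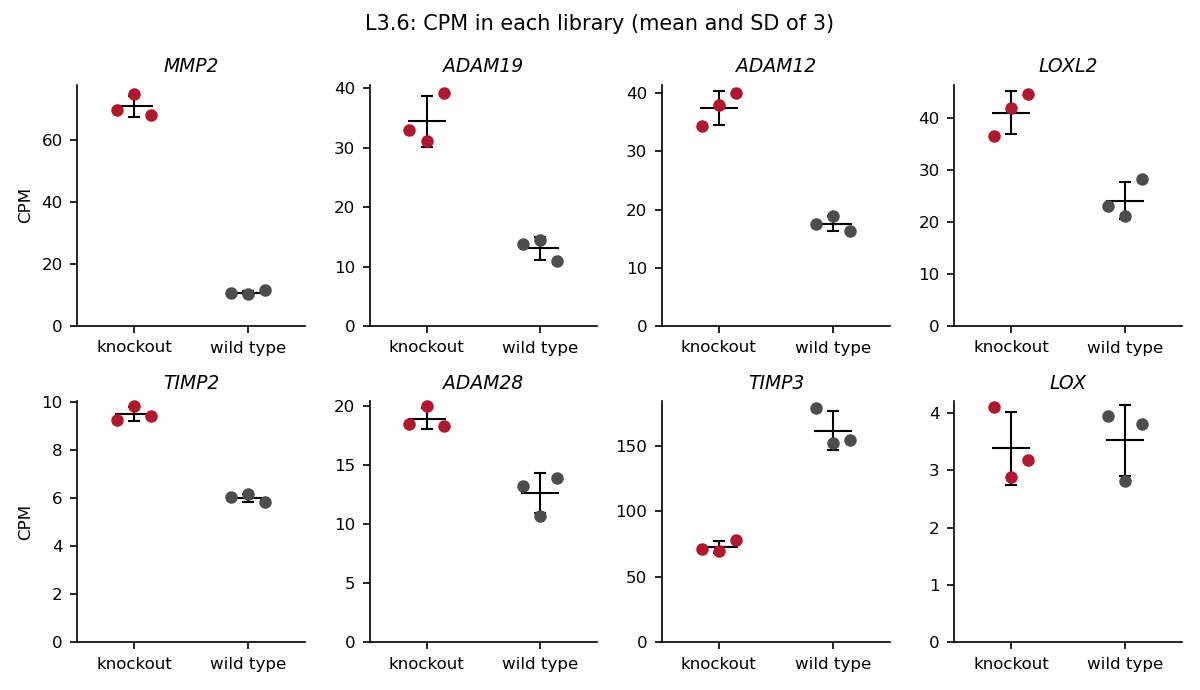
CPM of 8 members in each L3.6 library, knockout left and wild type right, with the mean and SD of 3 libraries. The 7 called members are shown with LOX. MMP2 sits between 68.4 and 74.9 in knockout cells and between 10.4 and 11.5 in wild type cells, TIMP3 is lower in knockout cells, and the values of LOX overlap.

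The other members of L3.6 stayed under the threshold. ADAM10 had 221.2, 231.1 and 219.3 CPM in knockout cells, against 211.0, 200.8 and 199.6 CPM in wild type cells (log2 0.14 ± 0.05, adjusted p = 0.12). ADAM15 had 190.1, 201.6 and 191.4 CPM, against 188.2, 154.8 and 150.7 CPM (0.24 ± 0.09, adjusted p = 0.118). Both are abundant, their knockout values were all higher, and both were called when wild type replicate 1 was left out (0.17, adjusted p = 0.039, and 0.36, adjusted p = 0.00455). TIMP1 had 2.86, 4.68 and 3.72 CPM in knockout cells, against 2.04, 2.49 and 2.20 CPM in wild type cells (0.75 ± 0.28, adjusted p = 0.134). LOXL1, which acts on elastin, had 0.850, 1.30 and 1.08 CPM, against 2.61, 1.52 and 3.47 CPM (-1.24 ± 0.39, adjusted p = 0.0869). LOX had 4.10, 2.88 and 3.17 CPM in knockout cells, against 3.95, 2.82 and 3.81 CPM in wild type cells (-0.07 ± 0.27, adjusted p = 0.886), and its groups overlapped throughout. LOXL3 likewise overlapped, with 3.17, 4.03 and 2.48 CPM in knockout cells and 4.14, 3.47 and 3.38 CPM in wild type cells. Among the membrane-anchored MMPs, MMP14 had 12.7, 12.6 and 13.1 CPM in knockout cells, against 12.0, 8.35 and 9.30 CPM in wild type cells (0.36 ± 0.17, adjusted p = 0.206). MMP17 had 17.9, 20.3 and 16.9 CPM, against 15.6, 13.0 and 14.6 CPM (0.35 ± 0.13, adjusted p = 0.14). The 8 ADAMTS genes tested lay between -0.89 and 1.05 on the log2 scale. The largest, ADAMTS17, had an adjusted p of 0.175, and ADAMTS20 had 9.12, 7.99 and 7.36 CPM in knockout cells, against 7.13, 9.32 and 8.71 CPM in wild type cells. MMP28 had 5.26, 8.92 and 6.04 CPM in knockout cells and 7.20, 5.42 and 6.01 CPM in wild type cells. ADAM22, which lacks an active protease site, had 12.5, 12.6 and 13.1 CPM in knockout cells, against 12.7, 17.5 and 16.2 CPM in wild type cells, and ADAM32, also without an active site, varied from 15.1 to 46.3 CPM over the 6 libraries.

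K17 in PANC-1 went with more LOX and more TIMP2. LOX, the founding lysyl oxidase, had 4.80, 4.65 and 3.94 CPM in K17 cells, against 0.824, 0.881 and 0.784 CPM in empty vector cells, 5.37-fold (log2 2.43 ± 0.17, adjusted p = 0.0152). TIMP2 had 101.9, 100.8 and 100.1 CPM in K17 cells, against 33.6, 30.3 and 34.1 CPM in empty vector cells, 3.09-fold (1.63 ± 0.12, adjusted p = 0.0152). The groups were far apart for both genes, empty vector replicate 2 included. These were the 2 members called of 34 tested in edgeR's quasi-likelihood test, both higher, while 0.644% of all 16295 genes passed, 0.583% higher and 0.0614% lower. Without any other PANC-1 library the calls were lost (adjusted p 0.12 to 0.177 for either gene) at log2 differences of 2.37 to 2.51 for LOX and 1.62 to 1.66 for TIMP2. In those 5 fits 0 members were called, and no more than 1 of all genes. Of the 37 to 39 members tested in those fits, 4 to 7 had an unadjusted edgeR p below 0.05. The share of all genes at that level in those fits is not given here. With all libraries 7 of the 34 members had an unadjusted edgeR p below 0.05, beside 10% of all genes. DESeq2 with all libraries called 3 members, and 595 of all genes. Groups did not overlap for 10 of the 34 members, against 25.6% of all genes. The median log2 difference of the members that passed the filter was 0.34, and that of all genes 0.01.

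**Figure D3:**
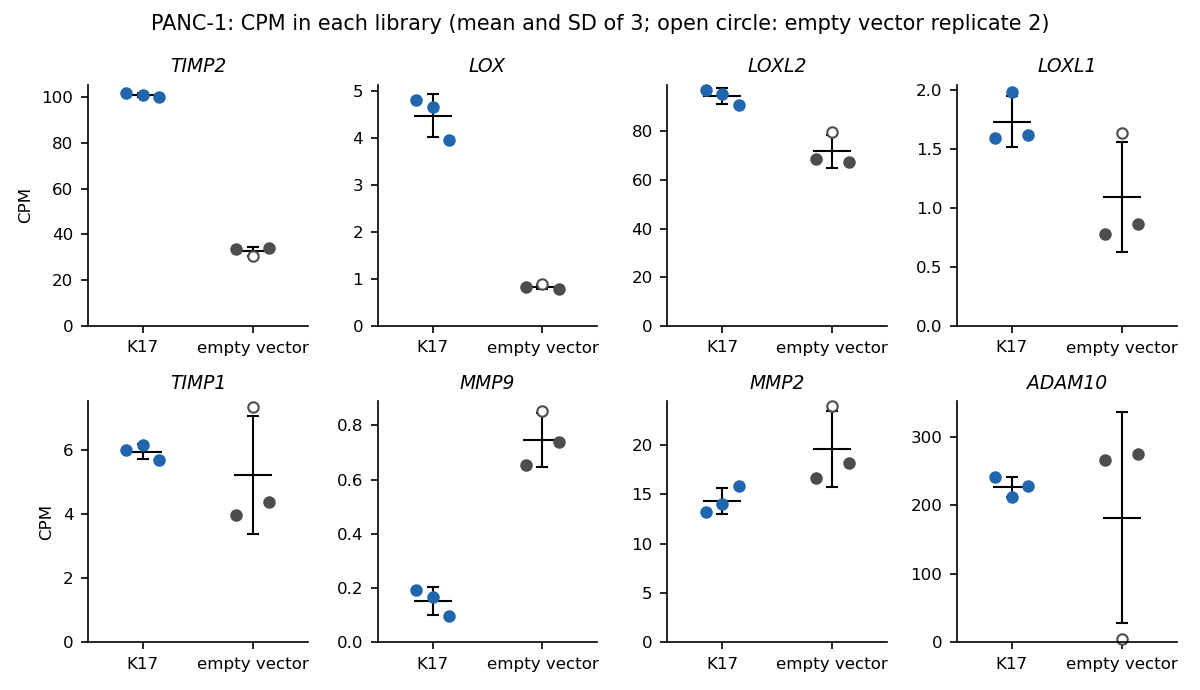
CPM of 8 members in each PANC-1 library, K17 left and empty vector right, with the mean and SD of 3 libraries and empty vector replicate 2 as an open circle. LOX and TIMP2 separate the groups in all libraries, and the open circle lies above the other empty vector libraries for TIMP1 and LOXL1 and near 0 for ADAM10.

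Without empty vector replicate 2, 11 of 39 members were called, 7 higher and 4 lower in K17 cells, beside 20.7% of all 16640 genes (11.4% higher and 9.25% lower). TIMP2 (log2 1.57 ± 0.03, adjusted p = 3.13e-06) and LOX (2.47 ± 0.17, adjusted p = 0.00015) were again among them. Among the lysyl oxidases LOXL2 was higher as well, with 97.1, 95.1 and 90.9 CPM in K17 cells, against 68.6, 79.5 and 67.2 CPM in empty vector cells (0.47 ± 0.04 without replicate 2, adjusted p = 0.000343, and 0.39 ± 0.13 with it, adjusted p = 0.351). LOXL1 had 1.59, 1.98 and 1.62 CPM, against 0.781, 1.63 and 0.863 CPM (1.07 ± 0.20 without replicate 2, adjusted p = 0.0102). TIMP1 had 5.99, 6.14 and 5.69 CPM, against 3.96, 7.33 and 4.36 CPM (0.51 ± 0.11, adjusted p = 0.0195). For LOXL1 and TIMP1 the second empty vector library lay inside or above the K17 values, and with it the log2 difference was 0.66 ± 0.33 for LOXL1 (adjusted p = 0.587) and 0.19 ± 0.27 for TIMP1 (adjusted p = 0.823). LOXL3, which also oxidises lysines of collagen and elastin, had 1.14, 1.09 and 0.808 CPM in K17 cells and 1.42, 2.45 and 1.08 CPM in empty vector cells, and was not called with replicate 2 (-0.71 ± 0.35, adjusted p = 0.587) or without it (-0.31 ± 0.24, adjusted p = 0.44).

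Both gelatinases had lower values in K17 cells than in empty vector cells. MMP9 was called only without replicate 2, and MMP2 neither with nor without it. MMP9 had 12, 10 and 6 counts in K17 cells, against 46, 58 and 47 counts in empty vector cells. That is 0.195, 0.167 and 0.0969 CPM against 0.653, 0.851 and 0.737 CPM. No library of one group reached the other. The ratio of summed counts was 4.82-fold lower in K17 cells with a counting interval of 3.2 to 7.49, the adjusted p was 0.0511 with all libraries (log2 -2.27 ± 0.32) and 0.00585 without replicate 2 (-2.17 ± 0.36). An antisense gene, SLC12A5-AS1, shares 18.4% of the exon length of MMP9, and reads of the 2 cannot be told apart without the strand setting. MMP2 had 13.1, 14.0 and 15.8 CPM in K17 cells, against 16.6, 23.9 and 18.2 CPM in empty vector cells (-0.45 ± 0.18, adjusted p = 0.499, and -0.29 ± 0.10 without replicate 2, adjusted p = 0.0885). The groups did not overlap for MMP2 although it was not called.

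Members of the remaining classes also passed without replicate 2. ADAM10 was lower, with 240.8, 211.4 and 228.4 CPM in K17 cells, against 266.4 and 274.4 CPM in empty vector replicates 1 and 3 (log2 -0.26 ± 0.05, adjusted p = 0.0174). With replicate 2, in which ADAM10 had 4.68 CPM, its log2 difference was 0.32 ± 1.15 (adjusted p = 0.932). MMP17, an MMP held on the membrane by a lipid anchor, had 6.05, 4.95 and 5.62 CPM in K17 cells, against 7.46, 13.0 and 7.51 CPM in empty vector cells (-0.44 ± 0.12 without replicate 2, adjusted p = 0.0407). ADAMTS10, which binds fibrillin microfibrils, had 3.13, 3.18 and 3.10 CPM, against 1.72, 3.24 and 2.21 CPM (0.67 ± 0.16, adjusted p = 0.0258). ADAMTS14, which removes the amino-terminal propeptide of procollagen, had 3.41, 2.91 and 3.20 CPM, against 1.53, 2.14 and 2.32 CPM (0.72 ± 0.20, adjusted p = 0.0487). ADAM23, an inactive ADAM of nerve cells, had 8 counts over the K17 libraries and 44 over the empty vector libraries, 4.91-fold lower with a counting interval of 2.29 to 12.1 (-2.57 ± 0.61 without replicate 2, adjusted p = 0.0267). With all libraries the log2 difference was -0.75 ± 0.27 for MMP17 (adjusted p = 0.426), 0.39 ± 0.26 for ADAMTS10 (adjusted p = 0.66) and 0.67 ± 0.21 for ADAMTS14 (adjusted p = 0.346), and ADAM23 was under the filter on low counts. ADAMTS15, the most abundant ADAMTS of the line, had 68.6, 69.7 and 70.7 CPM in K17 cells and 62.9, 78.2 and 66.4 CPM in empty vector cells, a log2 difference of 0.01 ± 0.13 with all libraries and 0.10 ± 0.04 without replicate 2 (adjusted p = 0.106). MMP19, which was under the filter on low counts, had 7, 12 and 9 counts in K17 cells and 0 in each empty vector library, at least 10.4-fold higher with a floor of 3 counts over the group. Its adjusted p without a filter was 0.12. A pseudogene on the opposite strand, TMEM198B, shares 17.4% of its exon length.

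In empty vector replicate 2, 3 of the 34 members tested (8.82%) lay far below the other PANC-1 libraries, a smaller share than among all genes. ADAM10 had 4.68 CPM in it and 211.4 to 274.4 CPM in the other 5 PANC-1 libraries. ADAM9, another widely expressed sheddase, had 2.45 CPM in it and 23.5 to 27.2 CPM in the others, and ADAM22 had 5.02 CPM and 14.5 to 15.0 CPM. These were the 3 of 34 members that lay more than 2 times below the lowest of the other 5 libraries, where 14.6% of all genes did. No member lay more than 2 times above the highest, where 3.9% of all genes did. The log2 difference of ADAM9 between K17 and empty vector cells was 0.44 ± 0.77 with that library and -0.08 ± 0.07 without it, and that of ADAM22 was 0.37 ± 0.41 with it and 0.01 ± 0.07 without it.

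**Figure D4:**
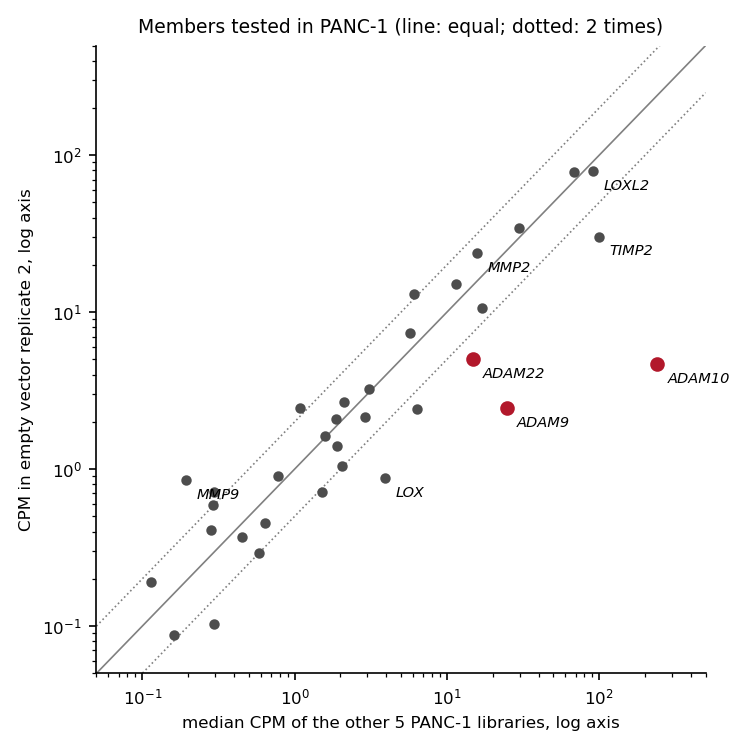
CPM in empty vector replicate 2 against the median of the other 5 PANC-1 libraries for the 34 members tested, both axes logarithmic. The solid line marks equal values and the dotted lines a factor of 2. ADAM10, ADAM9 and ADAM22 (red) lie far below, TIMP2 and LOX lie below because the median is taken mostly over K17 libraries, and MMP9 lies above.

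Knockout in L3.6 and over-expression in PANC-1 change K17 in opposite ways, so the difference of the effects of K17 was tested in 1 fit of the 12 libraries, as PANC-1 K17 minus empty vector less L3.6 wild type minus knockout. Of 44 members tested 6 passed an adjusted p of 0.05, all with a positive difference, where 1.54% of all genes passed and 1.25% with a positive difference. TIMP2 had the lowest adjusted p, with a difference of 2.26 ± 0.14 (SE, log2, adjusted p = 1.62e-05): it was higher in K17 cells of PANC-1 and also higher in knockout cells of L3.6. LOXL2 (1.12 ± 0.21, adjusted p = 0.0227) had positive differences in the same pair of contrasts. MMP2 (2.22 ± 0.24, adjusted p = 0.000926) combined 2.72 for knockout minus wild type with -0.45, which was not called, for K17 minus empty vector, so its values were lower in the cells with more K17 in both lines. The L3.6 contrast was the larger part for ADAM19 (1.72 ± 0.23, adjusted p = 0.00317) and ADAM12 (1.57 ± 0.31, adjusted p = 0.0311), and the PANC-1 contrast was the larger part for LOX (2.32 ± 0.31, adjusted p = 0.00322). In PANC-1 alone ADAM19 had 16.9, 16.9 and 17.0 CPM in K17 cells, against 14.0, 10.6 and 15.2 CPM in empty vector cells, and ADAM12 had 1.56, 1.51 and 1.96 CPM, against 1.33, 0.719 and 1.49 CPM. Neither meltrin was called in that line (log2 0.35 ± 0.17 for ADAM19 and 0.50 ± 0.31 for ADAM12, and 0.21 ± 0.07 and 0.24 ± 0.19 without empty vector replicate 2). The call of ADAM12 was lost when any L3.6 library or any K17 library was left out (adjusted p 0.0551 to 0.106), and that of LOXL2 without L3.6 knockout replicate 3 (0.0722).

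Without empty vector replicate 2, 9 of 39 members passed the test of the difference, again all positive, beside 11.5% of all genes (8.72% positive). TIMP1 (1.34 ± 0.30, adjusted p = 0.0138), ADAM15 (0.56 ± 0.16, adjusted p = 0.0401) and ADAM28 (0.93 ± 0.28, adjusted p = 0.0492) joined the 6, whose differences shifted by up to 0.28 on the log2 scale. TIMP3 could not be compared in this way with any precision: PANC-1 had 0.276, 0.0335 and 0.113 CPM in K17 cells and 0.0568, 0.0147 and 0.157 CPM in empty vector cells, close to the level of 3 counts, and the difference of effects was -0.27 ± 0.87 with all libraries and -0.65 ± 0.77 without empty vector replicate 2.

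**Figure D5:**
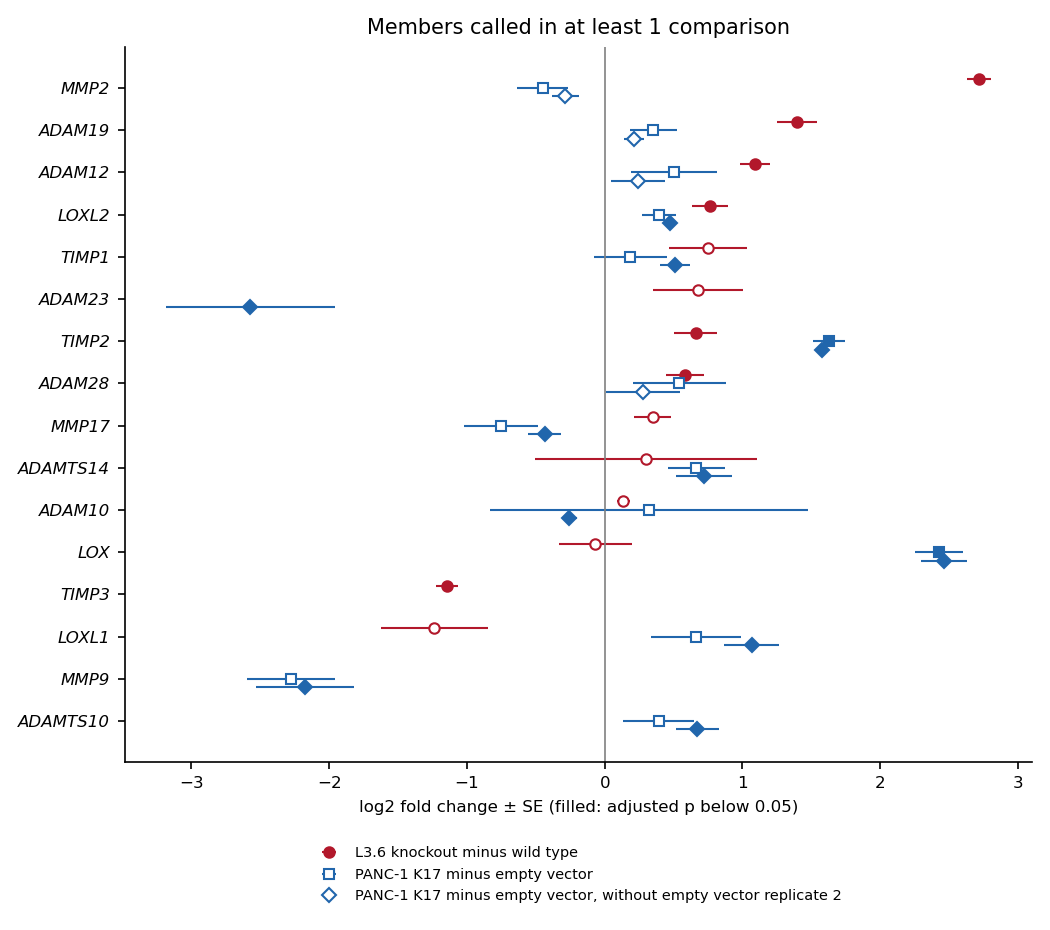
Log2 fold change with SE of the 16 members called in at least 1 comparison, for L3.6 knockout minus wild type (circles), PANC-1 K17 minus empty vector (squares) and the same without empty vector replicate 2 (diamonds). Filled symbols have an adjusted p below 0.05. MMP2 is filled on the right for L3.6 alone, LOX for PANC-1 alone, TIMP2 in all 3, and TIMP3 is filled on the left for L3.6.

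The ratio of MMP2 to TIMP2 transcripts was higher in L3.6 knockout cells than in wild type cells and lower in PANC-1 K17 cells than in empty vector cells, and no test was run on the ratio itself. Within a library the CPM of MMP2 was 7.53, 7.60 and 7.24 times that of TIMP2 in L3.6 knockout cells, against 1.74, 1.68 and 1.97 times in wild type cells. In PANC-1 it was 0.129, 0.139 and 0.158 times that of TIMP2 in K17 cells, against 0.496, 0.787 and 0.534 times in empty vector cells. The groups did not overlap in either line, and these ratios are of transcripts and share the measurements given above. MMP2 was 0.980, 1.08 and 0.873 times TIMP3 in L3.6 knockout cells, against 0.0589, 0.0685 and 0.0747 times in wild type cells. The ratio of MMP14 to TIMP2, the pair that activates the MMP2 precursor, was 1.37, 1.28 and 1.39 in knockout cells and 1.99, 1.35 and 1.59 in wild type cells, which overlap. In PANC-1 it was 0.0439, 0.0415 and 0.0668 in K17 cells, against 0.198, 0.0799 and 0.186 in empty vector cells.

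Genes that act on these proteases were followed in 6 lists with 45 genes. In L3.6, 7 of 38 tested passed, all higher in knockout cells, beside 9.61% of all genes. FURIN, the convertase that cuts the propeptide of many MMPs and ADAMs, had 127.0, 129.8 and 127.2 CPM in knockout cells, against 69.2, 65.7 and 66.9 CPM in wild type cells (0.93 ± 0.05, adjusted p = 5.83e-05). PCSK6, another convertase, was 0.48 ± 0.10 higher. TFPI2, a serine protease inhibitor of the matrix, had 4.79, 5.40 and 2.94 CPM, against 0.637, 0.217 and 0.508 CPM (3.18 ± 0.43, adjusted p = 0.00329). The groups did not overlap for FURIN or TFPI2. SERPINE2, an inhibitor of plasminogen activators, was 0.55 ± 0.05 higher, the MMP inducer BSG 0.30 ± 0.06, the collagen chaperone SERPINH1 0.41 ± 0.05 and TSPAN17, a tetraspanin partner of ADAM10, 0.62 ± 0.10. The calls of PCSK6 and BSG were lost without single libraries (PCSK6 without knockout replicate 1 or 3 or wild type replicate 2, adjusted p 0.0648 to 0.0902, and BSG without knockout replicate 2 or 3 or wild type replicate 2 or 3, 0.0685 to 0.117). The ligands that ADAM10 and ADAM17 shed had a median log2 difference of -0.21 over 4 genes tested.

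In PANC-1, 0 of the 37 regulator genes tested were called by edgeR with all libraries, beside 0.644% of all genes. An unadjusted edgeR p below 0.05 was found for 9 of the 37, beside 10% of all genes. DESeq2 called 3 of them, and 595 of all genes. Without empty vector replicate 2, 16 of 38 were called, beside 20.7% of all genes. SPOCK1, a testican proteoglycan of the matrix, had 54.0, 53.1 and 55.3 CPM in K17 cells, against 15.1, 5.97 and 12.1 CPM in empty vector cells (2.29 with all libraries, adjusted p = 0.0586, and 1.99 ± 0.10 without replicate 2, adjusted p = 6.5e-05). PLAU, the urokinase that starts plasmin formation, had 18.0, 19.8 and 15.6 CPM, against 9.37, 31.3 and 7.20 CPM (1.10 ± 0.15 without replicate 2, adjusted p = 0.00327, and 0.16 ± 0.57 with it, adjusted p = 0.931). Its second empty vector library lay above all K17 libraries. PCSK6 was 0.73 ± 0.10 higher without replicate 2, TSPAN5 0.72 ± 0.11 and the collagen prolyl hydroxylase P4HA2 0.53 ± 0.06. RECK, a membrane inhibitor of MMPs, differed by -0.42 ± 0.08 on the log2 scale (adjusted p = 0.0111), SERPINH1 differed by -0.49 ± 0.05, and TSPAN15, which directs ADAM10 to certain substrates, by -0.47 ± 0.05. With all libraries these differences were 0.59 for PCSK6, 0.60 for TSPAN5, 0.56 for P4HA2, -0.61 for RECK, -0.80 for SERPINH1 and -0.56 for TSPAN15, with adjusted p of 0.121 to 0.346.

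Markers of other cell types moved with some of these results. Fibroblast markers summed to 147.5 to 153.7 CPM in PANC-1 K17 cells, against 41.4 to 70.0 CPM in empty vector cells. COL1A1 carried nearly all of that sum, with 140.6, 142.4 and 136.4 CPM in K17 cells, against 22.0, 40.3 and 22.2 CPM in empty vector cells (log2 2.31, adjusted p = 0.0393, and 2.66 without empty vector replicate 2, adjusted p = 3.83e-07). COL3A1 had 0.406, 0.418 and 0.372 CPM, against 3.18, 2.57 and 2.85 CPM (-2.84, adjusted p = 0.0152, and -2.92 without replicate 2, adjusted p = 0.000102), THY1 was at 7.01 to 8.80 CPM against 14.7 to 25.9 CPM, and DCN, LUM, FAP and PDGFRB stayed under 0.9 CPM in all PANC-1 libraries. The calls of COL1A1 and COL3A1 were lost without any PANC-1 library other than empty vector replicate 2 (0.12 to 0.273). In L3.6 the fibroblast markers summed to 141.3 to 154.7 CPM in knockout cells, against 172.6 to 196.8 CPM in wild type cells, with COL1A1 lower in knockout cells (log2 -0.41 ± 0.08, adjusted p = 0.0211, and 0.0579 to 0.0905 without knockout replicate 1, 2 or 3 or wild type replicate 2). COL3A1 did not follow in L3.6, with 35.2, 41.4 and 37.2 CPM in knockout cells, against 34.8, 29.7 and 38.7 CPM in wild type cells, which overlap. Of the 4 fibroblast markers tested in L3.6, 1 was called lower in knockout cells and 0 higher. PDGFRB was at 0 in the L3.6 wild type libraries and LUM in the knockout libraries. Endothelial markers summed to 3.95 to 4.72 CPM in knockout cells, against 10.0 to 14.0 CPM in wild type cells, most of it PECAM1. Immune markers summed to 1.70 to 6.19 CPM in knockout cells and 3.98 to 4.71 CPM in wild type cells, and CD3E was at 0 in all 12 libraries. In PANC-1 the immune sum was 35.3 to 42.5 CPM in K17 cells and 35.7 to 51.2 CPM in empty vector cells, nearly all of it CD68. Epithelial markers summed to 3826 to 4131 CPM in L3.6 knockout cells, against 3221 to 3613 CPM in wild type cells, with KRT19 and KRT7 called higher (calls lost without 4 of the 6 libraries each, adjusted p 0.0651 to 0.112 for KRT19 and 0.0734 to 0.114 for KRT7), and squamous markers to 395.6 to 414.6 CPM against 278.8 to 302.0 CPM. The part of these shifts in the results on proteases and lysyl oxidases was not tested.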

How the data were processed

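Per the labels' protocols, RNA of the 12 human samples was isolated with TRIzol and sequenced after TruSeq library preparation. The authors deposited raw counts per gene for each sample. Per the submitters' processing notes the tools include kallisto 0.46.2, STAR 2.7.3a and bcl2fastq 1.8.4, and the human build is GRCh38. The counting tool, its annotation and its strand setting were not given in the sources used here. GENCODE 29 named 34474 of the 34505 rows (33619 with the same version), 31 had no name, and its merged exons gave lengths.

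The members, lists and tests were chosen with earlier results of these data known. Samples were grouped by their treatment label. Whether replicates are separate cultures is not in the labels, and p-values cover only the spread between the samples, which could be technical. For each line edgeR 4.0.16 (R 4.3.3) was run on its own 6 libraries with filterByExpr, TMM factors, robust glmQLFit and glmQLFTest. P-values were adjusted by Benjamini-Hochberg over the genes that passed the filter, and calls have an adjusted p below 0.05. The difference of the K17 effects and the contrast of the lines came from 1 fit of the 12 libraries. An SE is the log2 fold change divided by the square root of its F statistic. Depth was 9485257 to 15476629 counts in L3.6 and 59671178 to 70789559 in PANC-1. Counting intervals (exact, 95%) and floors (3 counts) include counting error alone.

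Genes named are KRT17, the 2 most abundant members of each role, all TIMP and lysyl oxidase genes, and up to 4 genes of each list. Members called in the L3.6 fit or in the test of the difference are named too. So are those called in the PANC-1 fit with or without empty vector replicate 2. Members called only in the contrast of the lines were not all named. ADAM9, ADAM22 and MMP19 are named for their pattern after their values were seen. Also named after their values were seen, outside the rule above, are TSPAN17, EPCAM, CDH1, KRT18, KRT5, KRT6A, KRT14, SERPINB5, CD3E, DCN, LUM, FAP and PDGFRB. The same holds for members at 0 or with a motif. Other settings tried were upper-quartile and RLE factors, no filter, 1 CPM in 3 libraries, DESeq2 1.42.0, a replicate block, 1 fit of the 4 human groups, and each library left out in turn. Leaving out each library in the contrasts over 12 libraries was added after seeing the data. The fits were tested on simulated data. Figures were drawn with matplotlib.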

Additional observations from a re-analysis of the deposited data

Results flagged for a closer look

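The effects of K17 in the 2 lines differed for 6 members in the test of the difference itself (PANC-1 K17 minus empty vector, less L3.6 wild type minus knockout, log2 scale, edgeR). The difference was 2.26 for TIMP2, 2.22 for MMP2, 1.72 for ADAM19, 2.32 for LOX, 1.12 for LOXL2 and 1.57 for ADAM12. These are the same values as in the report, and each group had 3 libraries.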

How the results depend on the processing

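In L3.6, RLE and upper-quartile factors, both filters and DESeq2 each called 7 members. The replicate block and 1 fit of the 4 human groups called 5 each, and leaving out 1 library called 5 to 9. Over all genes 1335 were called (63.4% higher). Upper-quartile factors called 1345, of which 52.5% were higher, 1 fit of the 4 groups called 204, and fits without 1 library called 574 to 2493, the highest without wild type replicate 1. In PANC-1, 1 fit of the 4 groups called 4 members, and fits without 1 library 0 to 11, the highest without empty vector replicate 2. Over all genes these called 363, and 0 to 3442, beside 105 with all libraries, and DESeq2 called 595. The cause was not tested.

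Deviations from the group mean of same-numbered libraries correlated at -0.12, -0.04 and 0.02 in L3.6 and at 0.05, 0.09 and 0.02 in PANC-1. Those of differently numbered libraries correlated at -0.09 to 0.123 in L3.6 and at -0.076 to 0.055 in PANC-1. With 3 libraries in each group these values cannot show whether replicate numbers pair the samples. With the replicate block 665 genes passed in L3.6, and 0 members and 0 genes in PANC-1. In PANC-1 5 members had an unadjusted edgeR p below 0.05, and the share of all genes at that level is not given here. In the test of the difference between the lines 3 members passed, and 70 of all genes.

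Among the named genes called in PANC-1 with all libraries or without empty vector replicate 2, and members with an unadjusted p below 0.05, directions turned for 5 under some setting. Over fits without 1 library the log2 difference was -0.257 to 0.73 for ADAM10, -0.183 to 1.099 for PLAU, -0.046 to 0.184 for FURIN, -0.384 to 0.456 for PCSK5 and -0.326 to 0.16 for KRT8. ADAM10 was negative without empty vector replicate 2, PCSK5 and KRT8 were positive without it, and PLAU and FURIN were negative without empty vector replicate 1 or 3. FURIN was also -0.053 with upper-quartile factors and -0.033 in 1 fit of the 4 groups, and PCSK5 0.028 with the replicate block. Of all 89 member and list genes with a PANC-1 value both with and without empty vector replicate 2, 20 differed in sign, including ADAM9 (-0.08 without and 0.44 with it), BSG (0.03 and -0.32), TSPAN17 (0.03 and -0.15), KRT19 (0.10 and -0.33), CD68 (0.05 and -0.13) and PECAM1 (0.69 and -0.45). For the genes called with all libraries, 202 of 246 alternative values in L3.6 kept direction and call and 44 lost the call, and in PANC-1 35 of 65 kept both and 30 lost the call.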
